A study of Xenopus laevis with 2 samples.

Results

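Transcripts of the complement system and of its ficolin recognition proteins were examined in hearts of the frog Xenopus laevis. The rows were chosen by gene symbol from a table of 8879 transcripts: c3, c4a, fcn1, c5, c9, cfb, cfh, cfi, masp1 and masp2. Of these 10 symbols, 9 had a row, and fcn1 and cfi had a row for each homeolog, which gave 11 rows in all, while c5 was not analysed here. The choice was made with ratios of these data known, c3, c4a and fcn1 having been picked because they were high. The comparison below is therefore a description of these rows, with no test.

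Polyadenylated RNA was sequenced from 2 libraries, 1 per group. The Tcf21-MO library came from hearts of embryos that had received a morpholino against tcf21, labelled as Tcf21-depleted, and the control-MO library from sibling hearts that had received a control morpholino. Morpholinos are antisense oligomers that bind an RNA and keep it from being translated or spliced, and tcf21 encodes a transcription factor of the epicardium, the outer cell layer of the heart. Both were given at fertilization, which reaches the whole embryo and not the heart alone. A temperature range of 16 to 23 C was recorded for both groups. Each library pooled 70 to 100 hearts dissected at stage 44 to 45, so variation between hearts is averaged and cannot be seen, and nothing here separates the effect of the morpholino from other differences between the pools.

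Complement is a cascade of blood-borne proteins that marks microbes and damaged cells for removal. It is started by antibody and C1 (the classical pathway), by ficolins and collectins that bind sugar or acetyl groups on surfaces and carry MASP proteases (the lectin pathway), or by slow activation of C3 itself (the alternative pathway). All routes converge on the cleavage of C3, and the last step is the membrane attack complex, a pore built from C5b to C9. In vertebrates the liver makes much of the circulating protein, and macrophages, neutrophils, endothelium and fibroblasts make some components locally.

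The libraries held 17767221 reads (Tcf21-MO) and 17636925 reads (control-MO). Levels are given as CPM, read counts divided by the TMM-scaled library size in units of 1000000 reads, and as CPM per kb of the deposited transcript length where genes are compared. Ratios are Tcf21-MO over control-MO, each followed by its 95% exact binomial counting interval, and log2 ratios were computed with 0.5 counts added. Intervals cover counting error only, because there was no replicate library, and no difference here has a replicate check. A row was called higher or lower when it had at least 20 reads over both libraries, differed at least 2-fold and had an interval without 1. As a check of the tissue, 11 of 13 listed cardiomyocyte markers had a row, with none at 0 reads and a summed level of 57021 CPM in Tcf21-MO and 76539 CPM in control-MO hearts. The tcf21 transcript had 3738 reads in the Tcf21-MO library and 1266 in the control-MO library, a ratio of 3.01 (2.82 to 3.21). The labels do not say which step its morpholino blocks, so this level does not check them.

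Most of the chosen complement and ficolin rows were higher in the Tcf21-MO library. Of the 10 rows with at least 20 reads, 8 were at least 2-fold higher (fcn1.L, fcn1.S, c4a, c3, cfh, cfi.L, masp1 and cfb), 0 were lower and 2 passed neither threshold (cfi.S and c9). By this rule 2.67% of 8132 rows were higher and 2.4% lower over the whole data set. Intervals lay above 1 for 9 of the 10 rows and below 1 for 0, against 29.8% and 28.4% of all rows. Nothing is read from these backgrounds, since the choice rested in part on the same ratios. The median log2 ratio over the 10 rows was 1.53, and over all 8132 rows it was 0.00 with a standard deviation of 0.52. All 11 rows together had 8306 reads in Tcf21-MO and 3025 reads in control-MO, a summed level of 474 CPM against 169 CPM and a ratio of 2.80 (2.68 to 2.92). Without c9, the row with the ratio closest to 1, the ratio of the sum was 3.83 (3.65 to 4.03). As c9 was left out with its ratio known, nothing is read from the rise. In pooled hearts, more cells of a type and more RNA per cell cannot be told apart.

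**Figure D1:**
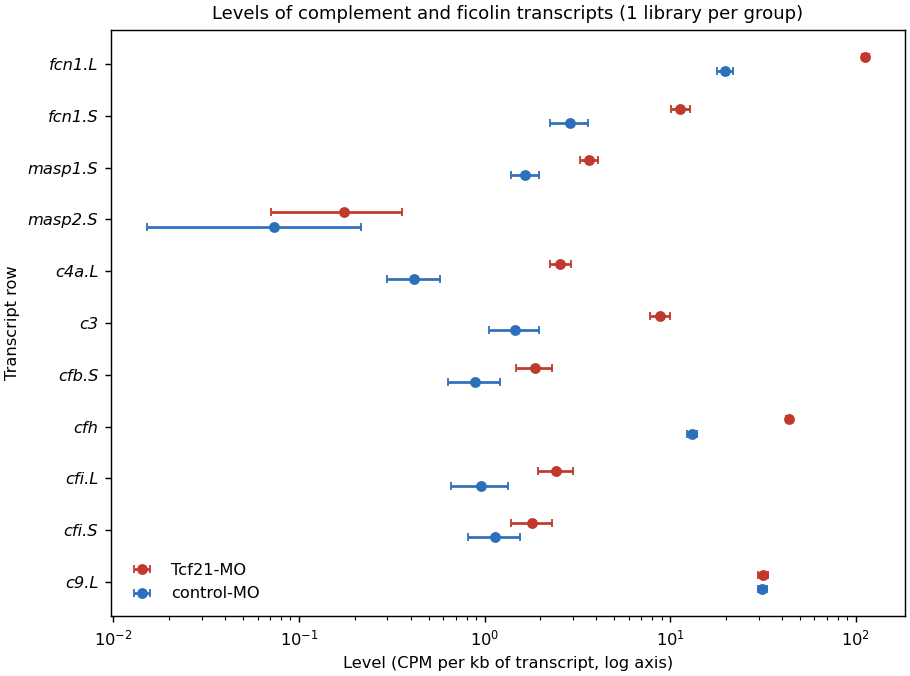
Level of each of the 11 rows in CPM per kb of transcript (log axis) in the Tcf21-MO and control-MO libraries, with 95% exact Poisson intervals as bars. The points of fcn1.L lie at 113 and 19.8 CPM per kb and those of c3 at 8.79 and 1.46, while those of c9.L overlap at 31.6 and 31.4.

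Of the chosen lectin pathway rows, those of the ficolin gene fcn1 had the highest ratios. Ficolins are secreted lectins with a collagen-like stem and a fibrinogen-like head, and the head binds acetylated groups on microbial surfaces. The row fcn1.L (NM_001089135, 1195 bp) had 2361 reads in Tcf21-MO and 422 reads in control-MO, levels of 135 and 23.6 CPM and a ratio of 5.70 (5.14 to 6.34). Its homeolog fcn1.S (NM_001085670, 1404 bp) had 280 reads in Tcf21-MO and 72 reads in control-MO, a ratio of 3.96 (3.05 to 5.21). Both copies were thus higher in Tcf21-MO hearts, and the L copy carried most of the ficolin RNA in each library. Per kb, the level of fcn1.L was 9.91 times that of fcn1.S in Tcf21-MO and 6.89 times in control-MO hearts. The ratio of fcn1.L exceeded that of fcn1.S by a factor of 1.44 (1.07 to 1.91, exact conditional interval), so the copies differed in ratio by slightly more than counting error. Reads that match both copies could have been counted in either row, and the sum of both rows, 2641 reads in Tcf21-MO and 494 in control-MO, had a ratio of 5.44 (4.94 to 6.01). The level of fcn1.L in CPM per kb exceeded that of 91.5% of all rows in Tcf21-MO and of 64.6% in control-MO hearts.

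The proteases that travel with ficolins were less abundant. The row masp1.S (NM_001088871, 4696 bp) had 302 reads in Tcf21-MO and 139 reads in control-MO, a ratio of 2.21 (1.80 to 2.73). In mammals the MASP1 gene encodes MASP-1 and, by alternative splicing, MASP-3, which matures factor D, and the deposited row does not separate such forms. MASP-2 is the protease that cleaves C4 and C2 in the lectin pathway. Its row masp2.S (NM_001085651, 2282 bp) had 7 reads in Tcf21-MO and 3 reads in control-MO, a ratio of 2.38 with an interval from 0.543 to 14.2, so no difference was detectable at this depth. The ratio of fcn1.L exceeded that of masp1.S by a factor of 2.57 (2.04 to 3.24), and the level of fcn1.L per kb was 30.7 times that of masp1.S in Tcf21-MO and 11.9 times in control-MO hearts. This pair of genes, like the other pairs compared below, was chosen after the values were seen.

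C3 and C4, which form the C3 convertases with factor B or C2, had low levels and the highest ratios of the 11 rows. C4, which is cleaved by C1s or MASP-2 and binds covalently to targets through an internal thioester, was represented by c4a.L (NM_001087465, 5212 bp). It had 234 reads in Tcf21-MO and 39 reads in control-MO, a ratio of 6.11 (4.34 to 8.81), or 2.56 and 0.419 CPM per kb. C3, the thioester protein on which all pathways converge, had 261 reads in Tcf21-MO and 44 reads in control-MO, a ratio of 6.04 (4.38 to 8.52), or 8.79 and 1.46 CPM per kb. The ratio of c3 over that of c4a was 0.989 (0.603 to 1.62), an interval that holds 1. The ratio of fcn1.L was 0.943 (0.658 to 1.33) over that of c3 and 0.932 (0.637 to 1.34) over that of c4a. These intervals hold 1 too, so c3 and c4a did not exceed fcn1.L beyond counting error. The deposited c3 row (NM_001089232) is 1692 bp long, far shorter than the c4a row although C3 and C4 messages are of similar length in vertebrates, so its level per kb holds for this row and not for a full c3 message.

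Factor B, the C2-like serine protease of the alternative pathway convertase, differed less. The row cfb.S (NM_001085578, 2451 bp) had 80 reads in Tcf21-MO and 39 reads in control-MO, a ratio of 2.09 (1.41 to 3.15). It had as many control-MO reads as c4a, but the ratio of c4a exceeded that of cfb by a factor of 2.92 (1.69 to 5.03), and that of c3 by 2.88 (1.70 to 4.90). The cfb call sat at the threshold. With the 0.5 counts of the rule added, its ratio was 2.08. When libraries were scaled to total reads without globin rows, or without the 50 most abundant rows, it was 1.97 or 1.96 and the 2-fold rule was missed. Both c4a and cfb ranked low in level, above 21.0% and 18.2% of all rows per kb in Tcf21-MO hearts and above 9.62% and 13.2% in control-MO hearts.

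**Figure D2:**
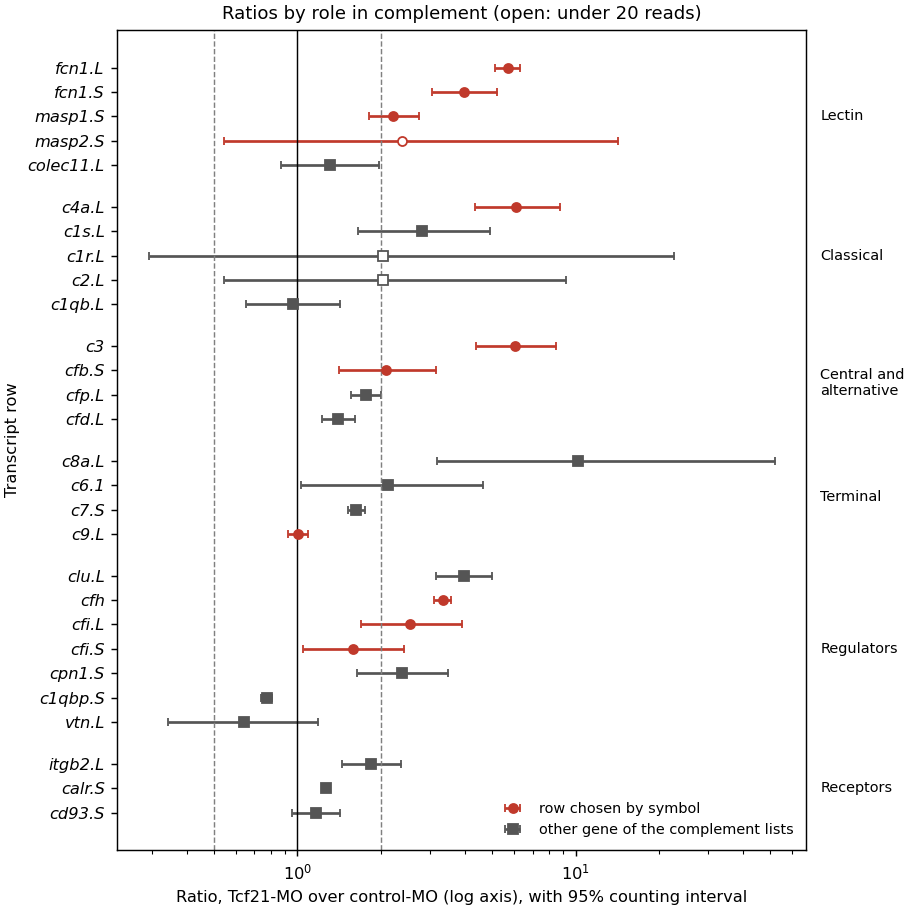
Ratio of Tcf21-MO over control-MO (log axis) for the rows chosen by symbol and the other genes of the complement lists, by role, with 95% counting intervals; dashed lines mark 2-fold. Rows under 20 reads are open, fcn2 and c6.2, at 0 in a library, are not drawn, and c3, c4a.L and fcn1.L lie near 6 while c9.L lies at 1.01.

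Of the rows of the regulators factor H and factor I, cfh and cfi.L were higher and cfi.S passed neither threshold. Factor H is a soluble protein that binds C3b and shields host surfaces, and its row cfh (NM_001086215, 4636 bp) took the most reads of all 11 rows in Tcf21-MO hearts. It had 3537 reads in Tcf21-MO and 1083 reads in control-MO, a ratio of 3.33 (3.11 to 3.56), or 43.5 and 13.1 CPM per kb. Factor I is the protease that cleaves C3b and C4b with factor H or other proteins as cofactor, and both homeologs of its gene had a row. The row cfi.L (NM_001101789, 1997 bp) had 85 reads in Tcf21-MO and 34 reads in control-MO, a ratio of 2.55 (1.69 to 3.91). The row cfi.S (NM_001085952, 1954 bp) had 62 reads in Tcf21-MO and 40 reads in control-MO, a ratio of 1.58 (1.04 to 2.41), above 1 but short of 2-fold. The copies did not differ in ratio beyond counting error, with a factor of 1.61 (0.885 to 2.94) of cfi.L over cfi.S, and their summed reads of 147 in Tcf21-MO and 74 in control-MO had a ratio of 2.02 (1.52 to 2.71). The level of cfh per kb was 17.9 times that of cfi.L in Tcf21-MO and 13.7 times in control-MO hearts.

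Of the 10 rows with at least 20 reads, only that of the terminal component c9 had an interval that held 1. C9 polymerizes into the wall of the membrane attack pore. Its row c9.L (NM_001086345, 1977 bp) had 1097 reads in Tcf21-MO and 1110 reads in control-MO, a ratio of 1.01 (0.925 to 1.10), the ratio closest to 1 among the 10 rows. Its depth was similar to that of fcn1.L in both libraries together, 2207 against 2783 reads, so the small difference is not a matter of few reads. The ratio of cfh exceeded that of c9 by a factor of 3.30 (2.96 to 3.69) and that of c3 exceeded it by 6.0 (4.29 to 8.55). The interval of c9 overlapped that of cfi.S, which had a ratio of 1.58 (1.04 to 2.41).

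The reads of the 11 rows were divided as follows. In Tcf21-MO hearts cfh took 42.6% of the reads of the 11 rows, fcn1.L 28.4% and c9 13.2%. In control-MO hearts c9 took 36.7%, cfh 35.8% and fcn1.L 14.0%. The shares of c3 and c4a were 3.14% and 2.82% in Tcf21-MO and 1.45% and 1.29% in control-MO hearts. These shares sum to the whole, depend on transcript length and describe these rows only, chosen in part for being high in Tcf21-MO hearts, so nothing is read from their difference.

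**Figure D3:**
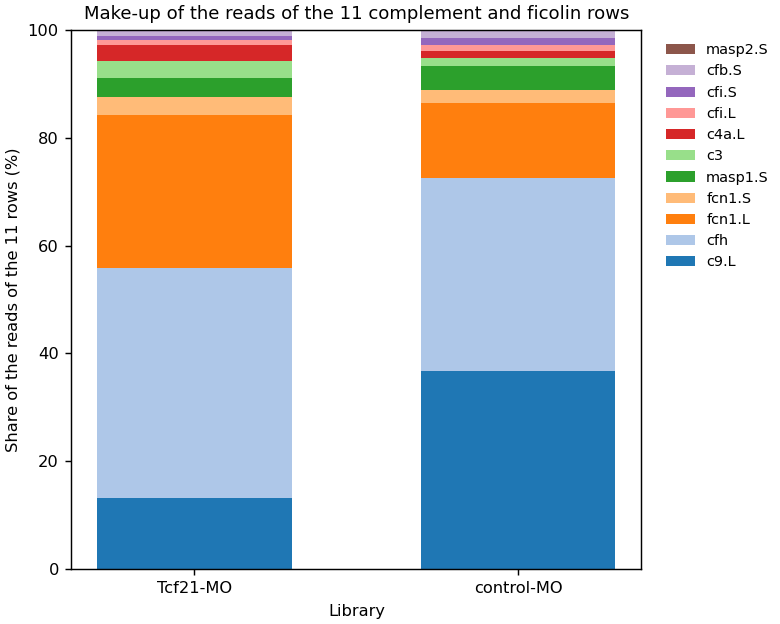
Share of the reads of the 11 rows taken by each row in the Tcf21-MO and control-MO libraries (percent, stacked bars). The lowest block, c9.L, is 13.2% in Tcf21-MO and 36.7% in control-MO, and fcn1.L is 28.4% and 14.0%.

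Per kb, the order of the levels differed between the libraries, at the top and farther down. In Tcf21-MO hearts the order was fcn1.L (113 CPM per kb), cfh (43.5), c9 (31.6), fcn1.S (11.4), c3 (8.79), masp1 (3.67), c4a (2.56), cfi.L (2.43), cfb (1.86), cfi.S (1.81) and masp2 (0.175). In control-MO hearts it was c9 (31.4), fcn1.L (19.8), cfh (13.1), fcn1.S (2.87), masp1 (1.66), c3 (1.46), cfi.S (1.15), cfi.L (0.953), cfb (0.891), c4a (0.419) and masp2 (0.0736). Exact Poisson intervals of neighbours overlapped among c4a, cfi.L, cfb and cfi.S in Tcf21-MO, and in control-MO between masp1 and c3, c3 and cfi.S, cfi.S and cfi.L, and cfi.L and cfb, while the other neighbours were separate. The median row with a read had 12.2 CPM per kb in Tcf21-MO and 12.4 in control-MO hearts, so fcn1.L, cfh and c9 were above the median in both libraries and the remaining rows were below it in both.

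**Figure D4:**
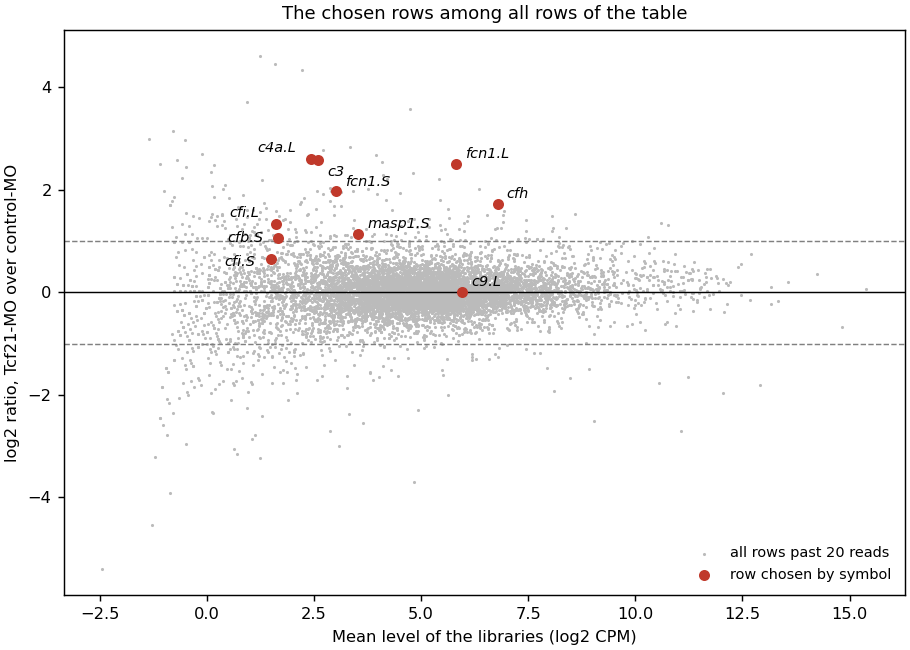
log2 ratio of Tcf21-MO over control-MO against the mean log2 CPM of the libraries for all 8132 rows with at least 20 reads (grey) and the 10 chosen rows among them (red); dashed lines mark 2-fold. The rows c4a.L, c3 and fcn1.L ranked 13, 15 and 17 in log2 ratio, and c9.L ranked 4010.

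By log2 ratio, c4a ranked 13, c3 15, fcn1.L 17, fcn1.S 36 and cfh 54 among the 8132 rows. The further ranks were 112 for cfi.L, 160 for masp1, 196 for cfb, 555 for cfi.S and 4010 for c9. The depth behind these values differs widely: fcn1.L and cfh had 2783 and 4620 reads over both libraries, above the median of 1064 for the table, whereas c3 and c4a had 305 and 273 and their intervals span about a factor of 2.

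The further genes of the cascade were taken from lists of 55 complement genes, which also hold the symbols described above. Of the 55, 27 had a row and 23 had at least 20 reads, with 12 higher, 0 lower and 11 past neither threshold. The median log2 ratio of the 23 was 1.05, against 0.00 for all rows. The 23 genes include c3, c4a and fcn1, picked because they were high, so nothing is read from this median or count. Leaving out the symbols described above, 18 genes had a row and 15 had at least 20 reads. Among those 15, 5 were higher, 0 lower and 10 neither, with a median log2 ratio of 0.70. Of the 5, c8a and c6.1 reached the 20-read minimum only through their Tcf21-MO reads. Over all 8132 rows, 2.67% were higher and 2.4% lower. The lists were chosen with earlier results of these data known, so these counts describe the listed genes only. In the classical pathway, the protease gene c1s had 55 reads in Tcf21-MO and 20 in control-MO, a ratio of 2.80 (1.65 to 4.93). The C1q subunit gene c1qb, a product of macrophages, had 54 reads in Tcf21-MO and 57 in control-MO, a ratio of 0.965 (0.653 to 1.43), and c1r and c2 had 6 and 12 reads over both libraries. The collectin gene colec11, which encodes another lectin that carries MASPs, had a ratio of 1.31 (0.873 to 1.96).

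The further alternative pathway genes differed by less than 2-fold. Properdin, which stabilizes the alternative convertase and is made by leukocytes, had 716 cfp reads in Tcf21-MO and 413 in control-MO, a ratio of 1.77 (1.56 to 2.00). Factor D, the protease that cleaves factor B, had 518 cfd reads in Tcf21-MO and 376 in control-MO, a ratio of 1.40 (1.23 to 1.61). Terminal components were mixed. The pore subunit gene c8a had 30 reads in Tcf21-MO and 3 in control-MO, a ratio of 10.2 (3.17 to 52.2), which reached the 20-read minimum only through its Tcf21-MO reads. The row c6.1 had 25 reads in Tcf21-MO and 12 in control-MO, a ratio of 2.12 (1.03 to 4.64), and reached the minimum in the same way. The gene c7 had 2000 reads in Tcf21-MO and 1252 in control-MO, a ratio of 1.63 (1.52 to 1.75).

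Of the 6 regulator genes with a row, 4 were higher and 0 lower, among them the chosen cfh and cfi. For cfi the row cfi.L stood for the gene, while cfi.S passed neither threshold. Across the table, 2.67% of 8132 rows were higher and 2.4% lower. Clusterin, a secreted chaperone that also binds the terminal complex, had 373 clu reads in Tcf21-MO and 96 in control-MO, a ratio of 3.96 (3.15 to 5.01). The carboxypeptidase gene cpn1, whose product inactivates C3a and C5a, had 100 reads in Tcf21-MO and 43 in control-MO, a ratio of 2.37 (1.64 to 3.47). Vitronectin (vtn) had 19 and 30 reads and a ratio of 0.645 (0.343 to 1.18). The lowest ratio with an interval without 1 was that of c1qbp, 0.776 (0.742 to 0.812), whose product is mainly mitochondrial. The receptor list held 3 measured genes, 0 of them past 2-fold, with ratios of 1.84 (1.44 to 2.36) for the leukocyte integrin chain itgb2, 1.26 for the chaperone gene calr and 1.16 (0.953 to 1.42) for cd93.

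Markers of cell types that make complement were set beside these values. Of 26 leukocyte markers, 16 had a row and none of these was at 0, while ptprc, spi1 and csf1r were not analysed here. Their summed level was 627 CPM in Tcf21-MO and 384 CPM in control-MO hearts, a ratio of 1.63 (1.58 to 1.68), with 5 of 16 genes higher and 0 lower and a median log2 ratio of 0.81. Most of this sum came from mpo and mmp9. The gene mpo had 171 CPM in Tcf21-MO and 132 CPM in control-MO, and mmp9 had 171 CPM and 71.1 CPM. The highest ratios were those of was, a cytoskeletal regulator of blood cells, at 4.92 (4.09 to 5.95) and arg1 at 3.96 (2.91 to 5.46). The lowest were those of csf3r at 0.890 (0.782 to 1.01) and cxcr4 at 0.947 (0.667 to 1.34). Of the 5 higher genes, ncf4 had 46 reads in Tcf21-MO and 17 in control-MO. It reached the read minimum only through its Tcf21-MO reads. By the same rule, 2.67% of all 8132 rows were higher and 2.4% lower. This marker list was chosen with earlier results of these data known, so its counts describe the listed genes only. The part of leukocytes in the complement ratios was not tested.

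Of 24 liver markers, 20 had a row and 16 had at least 20 reads. Their summed level was 199.7 CPM in Tcf21-MO and 202 CPM in control-MO hearts, a ratio of 0.988 (0.943 to 1.04), with 1 gene higher, 0 lower and a median log2 ratio of -0.03. For comparison, 2.67% of all 8132 rows were higher and 2.4% lower. Of the alb (albumin) rows, the one with more reads had 2 in each library and the other 1 in Tcf21-MO and 0 in control-MO, and apob had 0 in both, where a count of 0 allows up to 0.171 CPM in Tcf21-MO and 0.168 CPM in control-MO. The fibrinogen genes fgb and fgg were the highest, at 2.86 (2.08 to 4.0) and 1.90 (1.34 to 2.72), and apoa1 and ahsg the lowest, at 0.555 (0.411 to 0.743) and 0.614 (0.510 to 0.739).

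Epicardial and blood markers differed too, and their part was not tested. These marker lists too were chosen with earlier results of these data known, so their counts describe the listed genes only. Among all 8132 rows, 2.67% were higher and 2.4% lower by the same rule. Of 10 epicardial markers, 9 had a row, 4 of them higher and 0 lower, with a summed level of 2433 CPM in Tcf21-MO and 1226 CPM in control-MO hearts. The highest were lhx9 at 3.87 (3.31 to 4.53) and tcf21, the target of the morpholino and among the 4 higher genes. The lowest were upk1b at 0.890 (0.738 to 1.07) and sema3d at 0.918 (0.789 to 1.07). Most of the summed epicardial level came from the keratin gene krt8, with 1536 CPM in Tcf21-MO and 803 CPM in control-MO hearts. Of 18 erythroid markers, 13 had a row, 11 of them lower and 0 higher, with a summed level of 9203 CPM in Tcf21-MO and 32593 CPM in control-MO hearts. Their members with most difference were ca2, 5.71-fold lower, and hbd, 3.89-fold lower, and those with least were tal1 at 1.70-fold and epor at 1.71-fold lower. Of 12 endothelial markers, 5 had a row and 0 passed 2-fold, from egfl7 at 1.24 (1.16 to 1.33) and erg at 1.03 to fli1 at 0.907 and pecam1 at 0.862 (0.807 to 0.920). Cardiomyocyte markers ran from nppb at 1.58 and nppa at 1.14 to tnnt2 at 0.638 and myh6 at 0.626, with 0 of 11 past 2-fold.

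**Figure D5:**
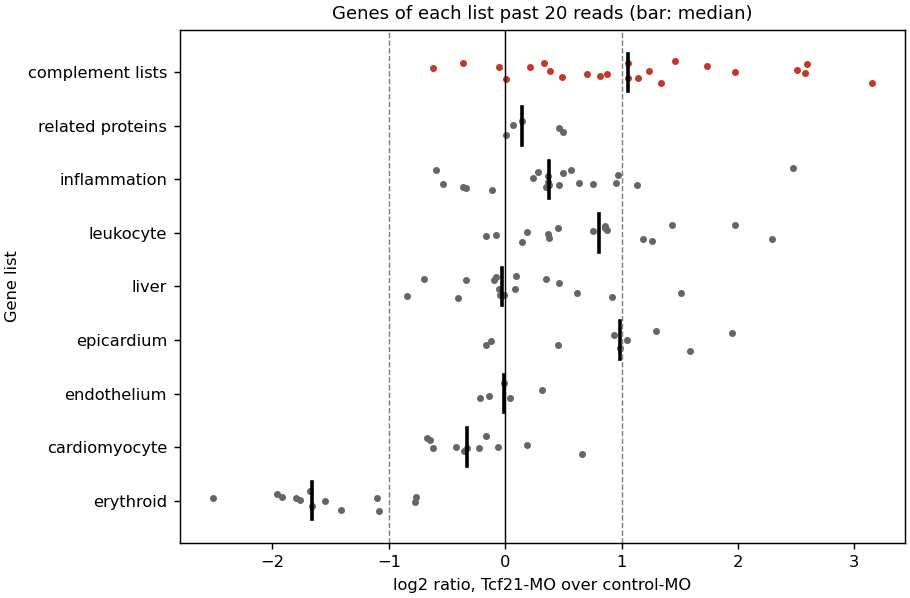
log2 ratio of Tcf21-MO over control-MO for each gene with at least 20 reads in the complement lists (red) and in other lists (grey), with the list median as a bar and dashed lines at 2-fold. The complement median lies at 1.05, the leukocyte median at 0.81, the liver median at -0.03 and the erythroid median at -1.66. The complement lists hold the symbols chosen in part for high ratios, and without these symbols their median was 0.70.

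The rows most like c3, c4a and fcn1.L were found by distance over the log2 CPM of the 2 libraries, which is a measure on a pair of values only. As c3, c4a and fcn1 were picked for high ratios of these same values, nothing is read from how close they lie. The rows c3 and c4a were close to each other, at a distance of 0.23 log2 units, and c3 was the nearest row to c4a in the whole table. Nearest to c3 was xa-1.L at 0.20, with 300 reads in Tcf21-MO and 44 in control-MO, and the third row for both was arg1, at 0.43 from c3 and 0.47 from c4a. The rows nearest to fcn1.L lay farther off, tbx2 at 0.61, acvr2a at 0.67 and parp3 at 0.72, with ratios of 4.63, 3.11 and 3.50.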

How the data were processed

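The authors deposited whole-read counts per RefSeq transcript for each library, not normalized, with a gene symbol and another value, the transcript length in bp, per the file headers. Tools listed in the submitters' processing notes are SAMtools 0.1.18.0, Bowtie2 2.0.0.6 and CASAVA 1.7, with no roles. How reads were counted (build, strand, several matches) is not given in the sources used here, and reads of homeologs or of overlapping genes may be shared between rows. The rows and gene lists were chosen with earlier results of these data known. Symbols are the deposited ones in lower case without -a or -b, and numbered copies stand for a listed gene unless the name table differs, which removed a row listed as c8g.2 (ptgds.S there). The L and S endings come from the RefSeq name table of assembly 10.1, which held 9 of the 11 accessions (not those of c3 and cfh) and 8315 of 8879 in all. It was used for names only.

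Libraries were scaled with TMM (edgeR 4.0.16, R 4.3.3), with factors of 0.987 for Tcf21-MO and 1.01 for control-MO. Ratios and intervals were computed in Python 3.11.15 with NumPy 2.4.6 and SciPy 1.17.1. The code was also run on simulated counts with Poisson error only. Such counts follow the model of the intervals, so the run checks the code and not how well the intervals suit these data. The printed ratio is that of the scaled counts, while the 2-fold rule used the log2 ratio with 0.5 counts added. Ratios under alternative settings were taken from the log2 ratio with its pseudocount. For a gene with several rows, the row with the highest level stood in list counts, and all rows entered summed levels. No p-value was computed. Reads amplified by PCR and carrying no molecular identifier are not independent, and intervals cover counting error only.

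Beyond the chosen rows, genes were named by a rule: complement genes past 2-fold and the extremes of each complement list with at least 20 reads, the 2 highest and 2 lowest of each other list with at least 50 reads, markers at 0, tcf21, and the 3 rows nearest to c3, c4a and fcn1. The remaining complement genes, krt8, mpo, mmp9 and ncf4 were named after their values were seen. Alternatives varied the scaling (DESeq2 1.42.0 size factors among them), the pseudocount, the read minimum, the fold threshold and the summing of copies.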

Additional observations from a re-analysis of the deposited data

How the results depend on the processing

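No paired analysis was possible because each group is 1 library, and no library could be left out. Over 10 alternatives (9 for masp2), the ratio of c3 ran from 5.64 to 6.03, c4a from 5.70 to 6.10, fcn1.L from 5.37 to 5.70, cfh from 3.14 to 3.33 and masp1 from 2.08 to 2.21. These ratios include the pseudocount. With it, the main setting gave 5.98 for c3, 6.05 for c4a and 5.69 for fcn1.L. The c9 ratio ran from 0.949 to 1.01, with its log2 ratio below 0 in 3 scalings. Of 109 recomputed log2 ratios of the 11 rows, 108 stayed within their counting interval. The exception was fcn1.S, whose value was 2.44 when the counts of both copies were summed, since fcn1.L supplies most of them. A change of the read minimum cannot move a ratio, and summing copies can move only fcn1 and cfi. Part of the 109 values were thus fixed in advance, and their count does not measure stability. At 4-fold, 3 of the 11 rows (c3, c4a and fcn1.L) and 4 complement list genes were higher, and at 1.5-fold 9 rows (cfi.S added) and 15 genes. Without a read minimum, 1 complement list gene, fcn2, was lower. Over the table, 636 rows were higher and 542 lower at 1.5-fold, 33 and 34 at 4-fold, and 106 were lower with a minimum of 100 reads. Scaling to total reads without globin rows or without the 50 most abundant rows left 7 rows and 10 complement list genes higher, without cfb and c6.1. A list limited to components and fluid-phase control proteins, chosen after seeing the data, held 10 higher of 16 genes. Depth limits masp2, c1r, c2 and fcn2, each with under 20 reads.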

Other observations

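Another ficolin gene had fewer reads in Tcf21-MO, at very low depth. The row fcn2.L had 0 reads in Tcf21-MO and 7 in control-MO, 2.29-fold lower against a floor of 3 counts in the library at 0. The row c6.2 had 5 reads in Tcf21-MO and 0 in control-MO, 1.70-fold higher by the same floor. These folds take the 7 and 5 reads as exact, so they are not lower bounds, and no difference is read from them. Both lie under the 20-read minimum.

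Listed transcripts of thioester proteins related to C3 and C4, and of pentraxins, differed by less than 2-fold where they had at least 20 reads. Of 7 listed genes, 6 had a row and 5 had at least 20 reads, 0 of them past 2-fold, with a median log2 ratio of 0.14. The ratios of the thioester protein genes, which encode broad protease inhibitors, came to 1.41 (1.06 to 1.89) for a2m, 1.05 (0.848 to 1.29) for a2ml1 and 1.01 (0.737 to 1.37) for pzp. The long pentraxin gene ptx3, which encodes a soluble pattern recognition protein, had 2809 reads in Tcf21-MO and 2074 in control-MO, a ratio of 1.38 (1.30 to 1.46).

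In a list of 28 genes of inflammatory and acute-phase signalling, 20 had a row, of which 2 were higher and 0 lower, with a median log2 ratio of 0.38. The shares over all 8132 rows were 2.67% higher and 2.4% lower. The cytokine gene il1b had 46 reads in Tcf21-MO and 8 in control-MO, a ratio of 5.86 (2.74 to 14.4). It reached the 20-read minimum only through its Tcf21-MO reads. The chemokine gene il8, called cxcl8 in the name table, had a ratio of 2.22 (1.32 to 3.87). The lowest were the signalling inhibitor gene socs1, at 0.659 (0.412 to 1.04), and the transcription factor gene rel, at 0.689 (0.467 to 1.01).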
